A study of Mus musculus with 3 samples.

Results

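The 6 TNF receptor superfamily genes described here, Tnfrsf4, Tnfrsf9, Tnfrsf18, Tnfrsf25, Tnfrsf1b and Cd27, encode receptors that costimulate T cells. They were taken by name from the 31053 genes of the table, not by a cut on their values, though with earlier results of these data known. All 6 passed the filter on low counts in every fit. They were measured in T cells from subcutaneous tumours of C57BL/6 mice, taken on day 14 and sorted as TCRβ+ CD3+ CD90.2+ CD11b-. MC38-Ova is a colon carcinoma line and B16-Ova a melanoma line, both made to express ovalbumin. Cells of each tumour type carried 1 of 2 hashtag antibodies and were run in 1 droplet capture, with 3 surface tags read beside the RNA, for PD-1, for Tim-3 and for the lectin L-Pha, which binds branched N-glycans. Every mouse carried a tumour, no uninvolved tissue was compared, and how many mice stand behind a hashtag is not given in the sources used here. Each tumour type was therefore a single pool, and p-values below measure the spread between sums of cells from 1 capture, which may be technical.

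TNF receptors of this group are engaged by trimeric ligands on antigen-presenting cells or other T cells, and recruit TRAF adaptors that activate NF-κB and raise survival and cytokine output. OX40 (Tnfrsf4), 4-1BB (Tnfrsf9) and GITR (Tnfrsf18) are induced by antigen receptor signals and are abundant on regulatory T cells in tumours, whereas CD27 is already present on resting T cells. DR3 (Tnfrsf25) carries a death domain and answers the ligand TL1A, and TNFR2 (Tnfrsf1b) is the TNF receptor that regulatory T cells use.

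5 of the genes lie on mouse chromosome 4 (GRCm38, GENCODE vM21). Tnfrsf4 was annotated at chr4:156013843-156016612 and Tnfrsf18 at chr4:156026164-156028895, both on the plus strand and 9551 bases apart. Tnfrsf9 stood at chr4:150914562-150946102 on the plus strand, Tnfrsf25 at chr4:152115934-152120119 on the plus strand and Tnfrsf1b at chr4:145213463-145246870 on the minus strand. Cd27 was on chromosome 6, at chr6:125232622-125237010 on the minus strand. Tnfrsf9 overlaps Camta1 and Cd27 overlaps Vamp1, each on the other strand. Tnfrsf18 overlaps the antisense gene Gm16008, which held 31 UMIs over the 8 sums of cells described below. Whether reads were counted by strand is not given in the sources used here, so reads of these overlaps cannot be told apart.

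All or part of the 250 bases upstream of 4 starts is printed for the neighbours Tnfrsf4 and Tnfrsf18, for Tnfrsf9 and for Tnfrsf25, the member that was highest in CD4 cells. They are RefSeq sequences of GRCm38.p6, plus strand, 5′ to 3′, cut to the stretch that lies in no annotated exon: chr4:156013611-156013694, chr4:156026072-156026163, chr4:150927749-150927917 (the second annotated Tnfrsf9 start) and chr4:152115684-152115933. For Tnfrsf18 and Tnfrsf9 the bases next to the start lie in annotated exons and are left out. Capitals mark a match, on the reverse strand, to the NF-κB motif, searched as GGG and TTTCC with any 2 bases between them.
Tnfrsf4: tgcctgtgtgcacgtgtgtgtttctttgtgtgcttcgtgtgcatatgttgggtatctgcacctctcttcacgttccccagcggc
Tnfrsf18: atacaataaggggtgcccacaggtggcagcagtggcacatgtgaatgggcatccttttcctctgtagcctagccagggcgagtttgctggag
Tnfrsf9: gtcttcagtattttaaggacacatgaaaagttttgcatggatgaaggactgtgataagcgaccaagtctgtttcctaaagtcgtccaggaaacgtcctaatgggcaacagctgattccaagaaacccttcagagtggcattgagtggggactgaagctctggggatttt
Tnfrsf25: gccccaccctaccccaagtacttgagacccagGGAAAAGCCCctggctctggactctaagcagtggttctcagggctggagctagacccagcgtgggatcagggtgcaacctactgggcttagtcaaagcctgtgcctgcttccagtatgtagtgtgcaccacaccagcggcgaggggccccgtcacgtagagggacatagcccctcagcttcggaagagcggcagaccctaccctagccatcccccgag

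A pair of motifs was searched on both strands of the 250 bases before each start, the AP-1 motif TGANTCA, present in 6.75% of 32851 RefSeq promoters, and the NF-κB motif, present in 1.41%. Both were settled on after these sequences had been seen. The second Tnfrsf9 start had TGAGTCA 8 bases and GGGGATTTCC 33 bases upstream, both inside an exon of another Tnfrsf9 transcript and therefore not printed. The first Tnfrsf25 start had GGAAAAGCCC 208 bases upstream. The windows of the first Tnfrsf9 start, of the second Tnfrsf25 start and of Tnfrsf4, Tnfrsf18, Tnfrsf1b and Cd27 held neither run of letters. A match is a description of the letters only, and the files hold no binding data.

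Of 19912 barcodes, 14992 passed the filters and carried 1 hashtag, 8407 of MC38-Ova and 6585 of B16-Ova. Cells were classed by UMIs (unique molecules counted) of genes that are not members. Treg cells had Foxp3 (960 cells of MC38-Ova and 777 of B16-Ova), innate-like cells Cd3e with Fcer1g or Tyrobp (780 of MC38-Ova and 455 of B16-Ova), CD8 cells Cd8a or Cd8b1 (2544 of MC38-Ova and 1792 of B16-Ova) and CD4 cells Cd4 without Foxp3 (736 of MC38-Ova and 753 of B16-Ova). The other 6195 cells, 41.3%, met no rule, and 3943 of them held Cd8a or Cd8b1 together with Cd4 or Foxp3. UMIs were summed by class and tumour into 8 sums of 2592067 to 20937848 UMIs, and median UMIs per cell ran from 4107 to 7358. Summed T cell markers stood at 3635 to 5537 CPM (UMIs scaled to a fixed total per sum) in every sum, Cd8a and Cd8b1 were at 0 in Treg and CD4 cells and Foxp3 was at 0 outside Treg cells, as the rules set. The melanoma list (Pmel, Mlana, Dct, Tyrp1, Tyr) stood at 244 to 449 CPM in the innate-like, CD8 and CD4 cells of B16-Ova and at 29.9 to 35.2 CPM in those of MC38-Ova. In Treg cells it stood at 188 CPM in MC38-Ova and 33.6 CPM in B16-Ova, and its part in results between tumours was not tested. The stroma list (Col1a1, Col1a2, Col3a1, Sparc, Dcn, Pecam1) was higher in MC38-Ova in every class. It ran from 61.4 to 371 CPM there and from 27.5 to 80.2 CPM in B16-Ova. Treg cells stood at 371 CPM in MC38-Ova and 29.4 CPM in B16-Ova. The part of this list was not tested either.

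Treg cells held the most transcripts of 5 of the 6 members in both tumours, and Tnfrsf25 was the exception. The 6 members together took 4622 CPM of Treg cells in MC38-Ova and 4357 CPM in B16-Ova. Their sum was 781 CPM in innate-like cells of MC38-Ova and 818 CPM in those of B16-Ova. In CD8 cells it was 1345 CPM in MC38-Ova and 1085 CPM in B16-Ova, and in CD4 cells 2230.1 CPM in MC38-Ova and 1458 CPM in B16-Ova.

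The 4 classes were compared in 1 fit of the 8 sums with the tumour as a term, so the comparisons share their sums and are not independent of each other. In the edgeR quasi-likelihood test, adjusted by Benjamini-Hochberg over all genes tested, a gene was called at an adjusted p under 0.05. Against CD4 cells, 5 of 6 members were higher in Treg cells, where 1.98% of 11188 genes were called higher and 1.37% lower. Against CD8 cells, 5 of 6 were higher in Treg cells (8.41% of genes higher, 7.04% lower), and against innate-like cells 6 of 6 were (11.2% higher, 9.81% lower). Innate-like cells had 2 members lower and 0 higher than CD8 cells (4.28% of genes lower, 3.85% higher). They had 4 members lower and 1 higher than CD4 cells (5.12% lower, 4.35% higher). CD8 cells had 3 members lower and 1 higher than CD4 cells (3.58% lower, 3.30% higher). The median log2 fold change of the members was 1.10 for Treg against CD4 cells, 1.57 against CD8 cells and 1.58 against innate-like cells, where the medians of all genes tested were −0.00265, −0.0104 and −0.0132.

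**Figure D1:**
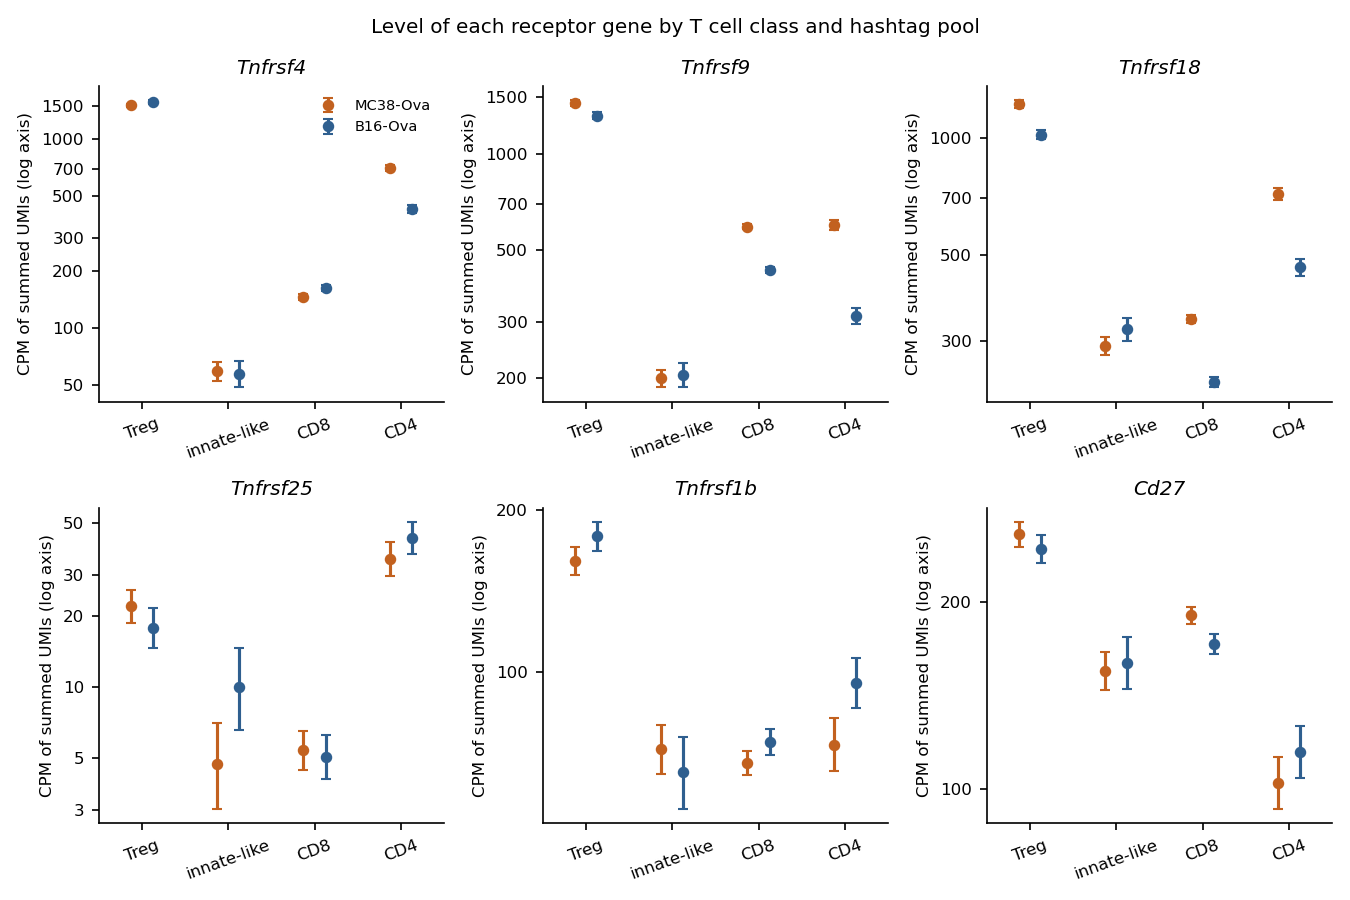
Level of each member in CPM (log axis) in the 4 cell classes, MC38-Ova in orange and B16-Ova in blue, with exact Poisson 95% intervals that cover counting error only. Treg cells are highest for Tnfrsf4 (1516 CPM in MC38-Ova and 1577 CPM in B16-Ova) and 4 other members, while Tnfrsf25 is highest in CD4 cells (35.3 CPM in MC38-Ova and 43.3 CPM in B16-Ova).

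Tnfrsf4, which encodes OX40, had the widest range of levels over the classes. Treg cells held 1516 CPM in MC38-Ova (95% interval 1487 to 1545, from 10486 UMIs) and 1577 CPM in B16-Ova (1545 to 1610.2, from 9064 UMIs). Innate-like cells held 59.0 CPM in MC38-Ova and 57.5 CPM in B16-Ova. CD8 cells held 146 CPM in MC38-Ova and 164 CPM in B16-Ova, and CD4 cells 702 CPM in MC38-Ova and 428 CPM in B16-Ova. The order of the classes was the same in both tumours, with no overlap of the intervals of neighbours. On the log2 scale, Treg cells were higher by 1.46 ± 0.19 than CD4 cells (SE; adjusted p 0.00846 in the Benjamini-Hochberg adjusted edgeR quasi-likelihood test), by 3.19 ± 0.20 than CD8 cells (adjusted p 0.000103) and by 4.60 ± 0.23 than innate-like cells (adjusted p 5.41e-05). The same test put innate-like cells lower than CD8 cells (log2 −1.41 ± 0.21, adjusted p 0.00894) and both innate-like cells (−3.15 ± 0.22, adjusted p 0.000452) and CD8 cells (−1.73 ± 0.19, adjusted p 0.00434) lower than CD4 cells. The Treg level was 2.16 times the CD4 level within MC38-Ova (2.07 to 2.25) and 3.69 times within B16-Ova (3.49 to 3.89).

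Cells were also thinned to 2000 UMIs each, so that shares of cells with a transcript could be read at 1 depth. Tnfrsf4 was then seen in 76.9% of Treg cells of MC38-Ova and 77.5% of those of B16-Ova. It was seen in 10.3% of innate-like, 18.7% of CD8 and 48.4% of CD4 cells of MC38-Ova, and in 11.6% of innate-like, 18.6% of CD8 and 37.8% of CD4 cells of B16-Ova. Without thinning the share in MC38-Ova was 85.1% of Treg and 40.4% of CD8 cells, and in B16-Ova 85.2% of Treg and 44.7% of CD8 cells. Cells without Cd3d, Cd3e or Cd3g were few. Of 8 with macrophage genes (median 5522.5 UMIs), 6 could be thinned, and 1 of these 6 held Tnfrsf4, 1 Tnfrsf9, 1 Tnfrsf18, 1 Tnfrsf1b, 0 Tnfrsf25 and 0 Cd27. The Clopper-Pearson interval of 1 in 6 is 0.421% to 64.1%, so the share that free RNA gives at the T cells' depth was not settled, and low shares are not read as expression. The 40 stromal cells (median 44160.5 UMIs) had Tnfrsf4 at 5.45 CPM, and were too deep for their thinned shares to stand for it. At least 3 UMIs per thinned cell were found in 46.6% of Treg cells of MC38-Ova and 46.1% of those of B16-Ova, and in 1.98% of CD8 cells of MC38-Ova and 1.62% of those of B16-Ova.

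Tnfrsf9 encodes 4-1BB, which sustains activated CD8 T cells and is also found on activated regulatory T cells. Its level in Treg cells was 1440.2 CPM in MC38-Ova and 1317 CPM in B16-Ova. Innate-like cells had 199.5 CPM in MC38-Ova and 204 CPM in B16-Ova. CD8 cells had 593 CPM in MC38-Ova and 435 CPM in B16-Ova, while CD4 cells had 600.3 CPM in MC38-Ova and 312 CPM in B16-Ova. Treg cells stood above, innate-like cells below, and CD8 and CD4 cells changed places with the tumour. The CD8 level was 0.988 times the CD4 level in MC38-Ova (0.947 to 1.03) and 1.40 times in B16-Ova (1.31 to 1.49), and the 2 classes did not pass the test (log2 0.32 ± 0.20, adjusted p 0.361 in the Benjamini-Hochberg adjusted edgeR quasi-likelihood test). In that test Treg cells were higher than CD4 cells (log2 1.63 ± 0.20, adjusted p 0.0073), CD8 cells (1.31 ± 0.20, adjusted p 0.0045) and innate-like cells (2.64 ± 0.21, adjusted p 0.000193). Innate-like cells were lower than CD8 cells (log2 −1.32 ± 0.20, adjusted p 0.0104 by the same test) and CD4 cells (−1.0 ± 0.21, adjusted p 0.0218). After thinning, the share of cells with Tnfrsf9 was 75.2% in Treg, 25.1% in innate-like, 38.7% in CD8 and 40.3% in CD4 cells of MC38-Ova. In B16-Ova it was 72.8% in Treg, 23.6% in innate-like, 34.6% in CD8 and 29.1% in CD4 cells.

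Tnfrsf18 encodes GITR, whose gene sits downstream of Tnfrsf4. Treg cells held 1226 CPM of Tnfrsf18 in MC38-Ova and 1023 CPM in B16-Ova, and innate-like cells held 291 CPM in MC38-Ova and 321 CPM in B16-Ova. CD8 cells held 342 CPM in MC38-Ova and 235 CPM in B16-Ova, and CD4 cells 717 CPM in MC38-Ova and 465 CPM in B16-Ova. Unlike Tnfrsf4 and Tnfrsf9, its levels in innate-like and CD8 cells did not pass the test (log2 0.12, adjusted p 0.697 in the Benjamini-Hochberg adjusted edgeR quasi-likelihood test). Innate-like cells were at 0.852 times the CD8 level in MC38-Ova (0.805 to 0.901) and at 1.37 times in B16-Ova (1.27 to 1.47). Treg cells were higher than CD4 cells (log2 0.94 ± 0.16, adjusted p 0.0255 by the same test), CD8 cells (1.85 ± 0.17, adjusted p 0.000462) and innate-like cells (1.73 ± 0.17, adjusted p 0.000438). CD8 cells were lower than CD4 cells (−0.91 ± 0.16, adjusted p 0.0226), as were innate-like cells (−0.79 ± 0.17, adjusted p 0.0253). The call between Treg and CD4 cells was lost with stricter class rules (adjusted p 0.0570 by the same test) and with stricter hashtag rules (adjusted p 0.0573). Thinned shares with Tnfrsf18 were 82.0% in Treg, 42.9% in innate-like, 42.9% in CD8 and 61.7% in CD4 cells of MC38-Ova. In B16-Ova they were 77.1% in Treg, 46.3% in innate-like, 34.0% in CD8 and 49.0% in CD4 cells.

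Tnfrsf25, the DR3 gene, went the other way between Treg and CD4 cells and was the most sparsely counted member. Treg cells held 22.1 CPM in MC38-Ova (153 UMIs) and 17.9 CPM in B16-Ova (103 UMIs). Innate-like cells held 4.72 CPM in MC38-Ova (24 UMIs) and 10.0 CPM in B16-Ova (26 UMIs), and CD8 cells 5.4 CPM in MC38-Ova and 5.05 CPM in B16-Ova. CD4 cells held 35.3 CPM in MC38-Ova (148 UMIs) and 43.3 CPM in B16-Ova (157 UMIs). CD4 cells had the highest level in both tumours. The Treg level was 0.627 times the CD4 level in MC38-Ova (0.497 to 0.792) and 0.414 times in B16-Ova (0.320 to 0.534), and the difference did not pass the test (log2 −0.97 ± 0.25, adjusted p 0.0855 in the Benjamini-Hochberg adjusted edgeR quasi-likelihood test). It passed with no filter on low counts (adjusted p 0.0178), with thinned cells (0.0298) and with only the 2 classes fitted (0.0187). CD8 cells were lower than CD4 cells (log2 −2.78 ± 0.26, adjusted p 0.0019 by the same test), innate-like cells were lower than CD4 cells (−2.39 ± 0.30, adjusted p 0.00306), and Treg cells were higher than CD8 cells (1.81 ± 0.26, adjusted p 0.00343) and innate-like cells (1.43 ± 0.31, adjusted p 0.0154). The last of these calls was lost with stricter class rules (adjusted p 0.0740) and with only the 2 classes fitted (0.0643). Thinned shares with Tnfrsf25 were 4.71% in Treg, 1.29% in innate-like, 1.36% in CD8 and 6.84% in CD4 cells of MC38-Ova. In B16-Ova they were 4.43% in Treg, 2.00% in innate-like, 1.28% in CD8 and 9.61% in CD4 cells.

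Tnfrsf1b encodes TNFR2, the receptor through which TNF supports regulatory T cells. It stood at 161 CPM in Treg cells of MC38-Ova and 179 CPM in those of B16-Ova. The other 3 classes lay together, at 72.0 CPM in MC38-Ova and 65.2 CPM in B16-Ova for innate-like cells, 67.8 CPM in MC38-Ova and 74.3 CPM in B16-Ova for CD8 cells, and 73.4 CPM in MC38-Ova and 95.4 CPM in B16-Ova for CD4 cells. None of the 3 comparisons among these classes passed the Benjamini-Hochberg adjusted edgeR quasi-likelihood test (adjusted p 0.941 for innate-like against CD8, 0.545 for innate-like against CD4 and 0.573 for CD8 against CD4 cells). Treg cells were higher than CD4 cells (log2 1.00 ± 0.12, adjusted p 0.0073 in that test), CD8 cells (1.13 ± 0.12, adjusted p 0.000967) and innate-like cells (1.15 ± 0.13, adjusted p 0.000745). It was seen after thinning in 24.6% of Treg, 14.1% of innate-like, 12.8% of CD8 and 12.3% of CD4 cells of MC38-Ova, and in 27.5% of Treg, 16.04% of innate-like, 13.3% of CD8 and 15.5% of CD4 cells of B16-Ova.

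Cd27, whose protein is present on resting T cells and binds CD70, was the only member higher in CD8 than in CD4 cells by the test. Treg cells had 257 CPM in MC38-Ova and 244 CPM in B16-Ova, and innate-like cells 155 CPM in MC38-Ova and 160 CPM in B16-Ova. CD8 cells had 190.4 CPM in MC38-Ova and 171 CPM in B16-Ova, and CD4 cells 102 CPM in MC38-Ova and 115 CPM in B16-Ova. CD4 cells were lowest in both tumours. In the edgeR quasi-likelihood test, adjusted by Benjamini-Hochberg over all genes tested, CD8 cells were higher than CD4 cells (log2 0.85 ± 0.10, adjusted p 0.00541), as were innate-like cells (0.66 ± 0.10, adjusted p 0.0073) and Treg cells (1.20 ± 0.10, adjusted p 0.0022). Treg cells stood above CD8 cells by 0.34 ± 0.10, just short of the threshold (adjusted p 0.0501 by the same test, 0.0277 to 0.0425 in 5 of the alternatives tried), and above innate-like cells by 0.54 ± 0.10 (adjusted p 0.00825). Innate-like and CD8 cells did not pass it (−0.19 ± 0.10, adjusted p 0.271 by edgeR). Thinned cells held Cd27 in 37.1% of Treg, 26.1% of innate-like, 30.9% of CD8 and 19.1% of CD4 cells of MC38-Ova, and in 33.2% of Treg, 29.4% of innate-like, 27.9% of CD8 and 18.1% of CD4 cells of B16-Ova.

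**Figure D2:**
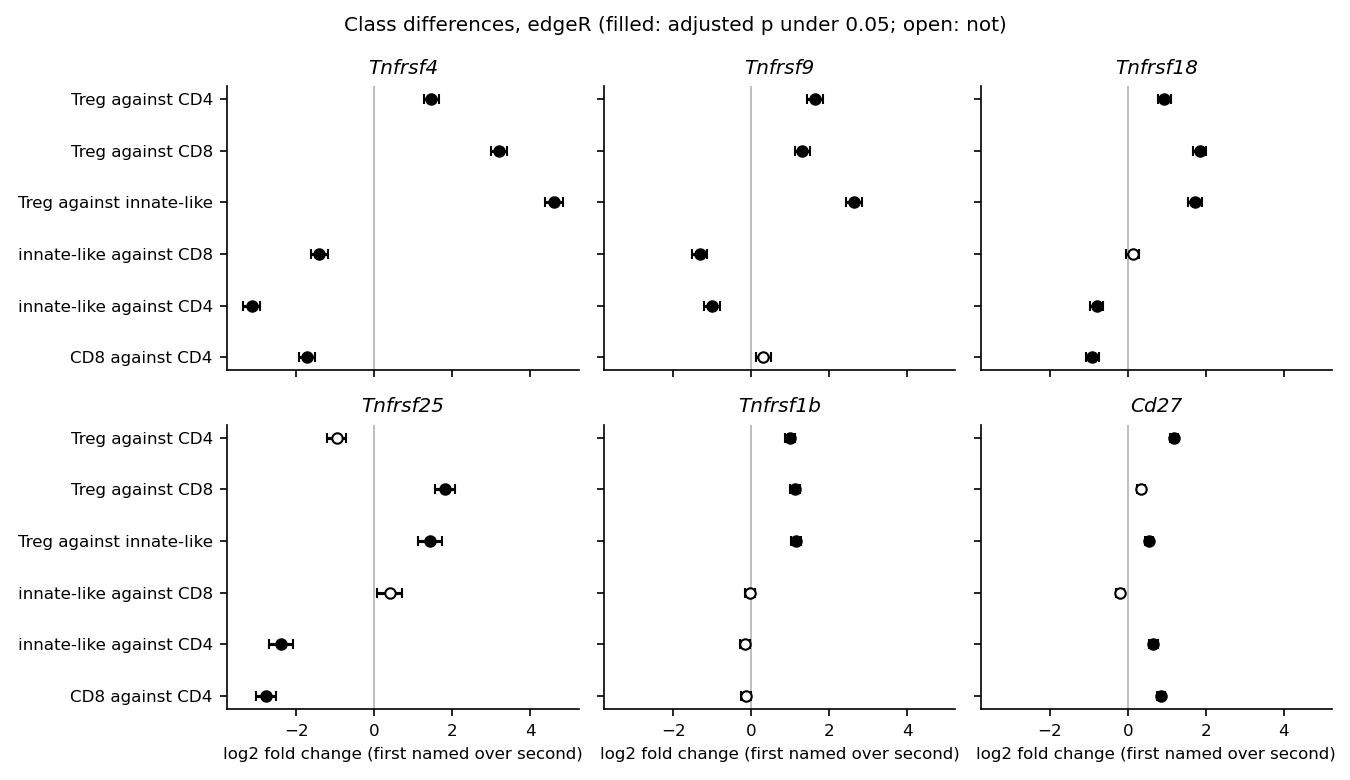
Log2 fold change of each member in the 6 class comparisons of 1 edgeR fit over 8 sums, with bars of ± SE. Filled points passed an adjusted p of 0.05 and open points did not. For Treg against CD8 and against innate-like cells the points are largest for Tnfrsf4, up to 4.60 against innate-like cells. For Treg against CD4 cells Tnfrsf9 is largest (1.63), and Tnfrsf25 is the 1 member below 0.

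The members were also read together in each thinned cell. Tnfrsf4, Tnfrsf9 and Tnfrsf18 were all present in 60.5% of Treg cells of MC38-Ova and 55.7% of those of B16-Ova. The corresponding shares were 1.81% of innate-like, 7.47% of CD8 and 21.0% of CD4 cells of MC38-Ova, and 0.891% of innate-like, 5.10% of CD8 and 12.6% of CD4 cells of B16-Ova. No member was seen in 5.53% of Treg, 26.0% of innate-like, 21.9% of CD8 and 13.7% of CD4 cells of MC38-Ova, and in 4.73% of Treg, 21.8% of innate-like, 24.6% of CD8 and 19.2% of CD4 cells of B16-Ova. Among CD8 cells, Tnfrsf9 was seen in 59.7% of cells with Tnfrsf4 and 33.8% of cells without it in MC38-Ova, and in 51.6% of cells with and 30.7% of cells without it in B16-Ova. Both were found together 1.54 times as often as the product of their shares in CD8 cells of MC38-Ova and 1.49 times in those of B16-Ova. In innate-like cells this was 0.996 times in MC38-Ova and 0.896 times in B16-Ova. These rest on few cells, as 2.59% of 773 innate-like cells of MC38-Ova and 2.45% of 449 of B16-Ova held both. The ratio was 1.13 in MC38-Ova and 1.12 in B16-Ova in Treg cells, and 1.29 and 1.38 in CD4 cells. Cells are not replicates, so no test was made of these shares.

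Apart from Tnf, the ligands of the members were low in these sorted T cells. Tnf reached furthest, and ran from 34.2 CPM in CD8 to 149 CPM in CD4 cells of B16-Ova. In CD4 cells it stood above Tnfrsf1b in B16-Ova (149 and 95.4 CPM) and in MC38-Ova (90.5 and 73.4 CPM). The same held in CD8 cells of MC38-Ova (94.8 and 67.8 CPM), and in the other sums Tnf lay below Tnfrsf1b. Lta ran from 12.7 CPM in CD8 cells of B16-Ova to 34.8 CPM in CD4 cells of MC38-Ova. Tnfsf4, the OX40 ligand, reached 0.723 CPM in MC38-Ova and 1.22 CPM in B16-Ova in Treg cells, and 14.6 CPM in CD8 cells of B16-Ova. Cd70, the CD27 ligand, did not exceed 9.65 CPM in any class. Tnfsf18, the GITR ligand, did not exceed 1.54 CPM in any class, and Tnfsf15, the DR3 ligand TL1A, did not exceed 0.870 CPM. Tnfsf9, the 4-1BB ligand, stood at 30.8 CPM in MC38-Ova and 33.2 CPM in B16-Ova in Treg cells, and at 37.2 CPM in MC38-Ova and 31.4 CPM in B16-Ova in CD4 cells. Of 17 listed ligand genes of the family 13 were tested, and in Treg against CD4 cells 4 were lower and 0 higher. The list's median log2 fold change was −1.62, against −0.00265 for all genes. The 4 were Tnfsf11, the RANK ligand (log2 −2.09 ± 0.25, adjusted p 0.0073 in the Benjamini-Hochberg adjusted edgeR quasi-likelihood test), Tnfsf8, the CD30 ligand (−2.03 ± 0.15, adjusted p 0.00182), Cd40lg, which encodes the CD40 ligand (−1.98 ± 0.39, adjusted p 0.0387), and Fasl (−1.76 ± 0.15, adjusted p 0.0022). Ltb, which encodes lymphotoxin β, pointed the other way without passing, at 878 CPM in MC38-Ova and 1028 CPM in B16-Ova in Treg cells, and 701 CPM in MC38-Ova and 822 CPM in B16-Ova in CD4 cells. Against CD8 cells 1 ligand was higher, Ltb (log2 0.63), and 3 were lower in Treg cells, with Fasl at −2.03. Against innate-like cells 3 were higher, Tnfsf11 (1.36), Tnfsf9 (0.87) and Ltb (0.54), and 2 lower, Fasl (−1.76) and Tnfsf8 (−1.28).

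Of 22 other TNF receptor genes 15 were tested, and Tnfrsf13b, which encodes the BAFF receptor TACI, was the 1 higher in Treg than in CD4 cells (log2 1.11 ± 0.22, adjusted p 0.041 in the Benjamini-Hochberg adjusted edgeR quasi-likelihood test), with 0 lower. Tnfrsf13b was also higher in Treg than in CD8 cells (log2 2.54), where 3 of the list were higher and 1 lower, and than in innate-like cells (2.32), where 2 were higher and 3 lower. Its level in Treg cells was 50.6 CPM in MC38-Ova and 40.2 CPM in B16-Ova. Of the 35 TRAF and NF-κB pathway genes, 2 were higher and 2 lower in Treg than in CD4 cells. Bcl3, an atypical IκB protein, was higher (log2 0.82 ± 0.14), as was the adaptor gene Traf4 (0.59), while Map3k14, the kinase NIK of the alternative NF-κB pathway (−1.12), and the survival gene Bcl2 (−1.01) were lower. Against CD8 cells 13 of 35 were higher and 1 lower in Treg cells, among them Bcl3 (1.16), the survival gene Bcl2l1 (0.97), the TRAF-binding gene Tank (0.91) and Birc3 (0.87), an inhibitor of apoptosis bound by TRAF proteins, with Bcl2 (−1.43) lower. Against innate-like cells 8 were higher and 3 lower, with Tank (1.33) highest and Bcl2 (−2.68) lowest.

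Of 18 other costimulatory and coinhibitory genes 16 were tested. In Treg against CD4 cells 3 were higher, the checkpoint genes Ctla4 (log2 1.33 ± 0.13) and Lag3 (1.16 ± 0.18) and the adhesion receptor gene Cd2 (0.70 ± 0.10), and 2 were lower, the nectin family receptor genes Cd226 (−1.19) and Cd96 (−1.16). Against CD8 cells 6 were higher and 4 lower, with Ctla4 (1.98), the costimulator gene Icos (1.75) and the inhibitory receptor gene Cd5 (1.44) higher and Cd226 (−1.60) and the PD-1 gene Pdcd1 (−1.53) lower. Against innate-like cells 12 were higher and 2 lower, led by Ctla4 (3.75), Icos (2.99), Lag3 (2.77), Slamf1 (2.76) and Cd5 (2.73).

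Between the classes other than Treg, innate-like cells had 9 of these 16 genes lower and 0 higher than CD8 cells, with Havcr2, which encodes Tim-3 (−3.69), Lag3 (−3.38), Pdcd1 (−3.21), Slamf1 (−2.23) and Ctla4 (−1.77). Against CD4 cells they had 13 lower and 0 higher, with Slamf1 (−3.25), Icos (−2.59), Cd5 (−2.53), Ctla4 (−2.41) and Cd6 (−2.41). Their ligand genes showed 1 higher and 1 lower than CD8 cells, with Tnfsf8 at 1.12, and 5 lower and 0 higher than CD4 cells, with Tnfsf11 (−3.45), Cd40lg (−3.25), Tnfsf9 (−0.97) and Tnfsf8 (−0.75). Of the pathway genes 2 were higher and 2 lower than in CD8 cells, Bcl2 (1.25), Birc3 (0.65), the survival gene Bcl2a1b (−1.23) and the inhibitor gene Nfkbib (−0.47). Against CD4 cells 2 were higher and 4 lower, with Bcl2 at 1.67, Bcl2a1b at −1.48, Tank at −0.87, Bcl2l1 at −0.76 and Nfkbib at −0.62. The other receptors counted 2 higher and 0 lower than CD8 cells, and 0 higher and 1 lower than CD4 cells, Tnfrsf13b (−1.21).

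CD8 cells compared with CD4 cells had 3 ligand genes lower and 0 higher, Cd40lg (−3.02), Tnfsf11 (−2.47) and Tnfsf8 (−1.87). Of the pathway genes Traf4 (0.50) was the 1 higher, and Map3k14 (−1.0), Birc3 (−0.75) and Tnfaip3, which encodes the NF-κB inhibitor A20 (−0.72), were the 3 lower. Of the other costimulators 3 were higher, Lag3 (1.77), Havcr2 (1.54) and Pdcd1 (1.20), and 6 lower, with Icos (−1.35) and Cd5 (−1.24). Of the other receptors 0 were higher and 2 lower, with Tnfrsf13b at −1.43.

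Within the Treg class, 5 of 6 members were lowest in cells with little Gzmb, the granzyme B gene of effector Treg cells, and no Klrg1, a receptor gene of terminally differentiated cells. These gates are descriptive and the cells differ in depth. Treg cells with Klrg1 (403 of MC38-Ova, 333 of B16-Ova) had 1776 CPM of Tnfrsf4 in MC38-Ova and 1702 CPM in B16-Ova. Those with at least 2 UMIs of Gzmb and no Klrg1 (350 cells of MC38-Ova and 197 of B16-Ova) had 1569 CPM in MC38-Ova and 1655 CPM in B16-Ova. Those with neither (207 cells of MC38-Ova and 247 of B16-Ova) had 673 CPM in MC38-Ova and 1172 CPM in B16-Ova. The last group lay below both others in both tumours, and the gap was wider in MC38-Ova. Tnfrsf9 went the same way, with 1634 CPM in MC38-Ova and 1424 CPM in B16-Ova with Klrg1, against 558 CPM in MC38-Ova and 944 CPM in B16-Ova with neither. Tnfrsf25 ran in the other direction, with 18.0 CPM in MC38-Ova and 12.3 CPM in B16-Ova with Klrg1, against 36.6 CPM in MC38-Ova and 32.6 CPM in B16-Ova with neither. Median RNA was 7083 UMIs per cell with Klrg1 and 3871 UMIs with neither in MC38-Ova, and 7280 UMIs with Klrg1 and 4110 UMIs with neither in B16-Ova, and its part in these differences was not tested. Across terciles of RNA per Treg cell, from low to high, Tnfrsf4 was at 1607, 1850.4 and 1353 CPM in MC38-Ova and at 1878, 1758 and 1447 CPM in B16-Ova.

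Among CD8 cells, Tnfrsf9 stood above the level of the whole class, 593 CPM in MC38-Ova and 435 CPM in B16-Ova, where transcripts of granzymes F and C or of Tim-3 were present. Cells with at least 3 UMIs of Gzmf and Gzmc (114 of MC38-Ova, 144 of B16-Ova) had 1056 CPM of Tnfrsf9 in MC38-Ova and 738 CPM in B16-Ova. Cells with Havcr2 and neither granzyme (687 cells of MC38-Ova and 488 of B16-Ova) had 911 CPM in MC38-Ova and 579 CPM in B16-Ova. The cells with the granzymes were the higher of the 2 gates in both tumours. Tnfrsf4 had 271 CPM in the granzyme gate and 217 CPM in the Havcr2 gate of MC38-Ova, and 215 CPM in the granzyme gate and 207 CPM in the Havcr2 gate of B16-Ova. Cd27 had 186 CPM in the granzyme gate and 213 CPM in the Havcr2 gate of MC38-Ova, and 189 CPM in the granzyme gate and 190.4 CPM in the Havcr2 gate of B16-Ova. CD8 cells with Gzmf and Gzmc held a median of 12696 UMIs in MC38-Ova and 16151 in B16-Ova, and over terciles of RNA Tnfrsf9 ran from 304 to 464 to 736 CPM in MC38-Ova and from 182 to 253 to 576 CPM in B16-Ova. The part of depth was not tested in these gates.

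Among CD4 cells, those with a transcript of Il4, Il5 or Il13, the type 2 cytokine genes, differed most between tumours. In MC38-Ova 51 such cells had 1355 CPM of Tnfrsf4, 1586 CPM of Tnfrsf9 and 1289 CPM of Tnfrsf18. In B16-Ova 18 such cells had 224 CPM of Tnfrsf4 (146 to 328), 249.8 CPM of Tnfrsf9 (167 to 359) and 465 CPM of Tnfrsf18 (349 to 607). CD4 cells with Ifng and none of these cytokines (242 of MC38-Ova, 279 of B16-Ova) had 625 CPM of Tnfrsf4 in MC38-Ova and 268 CPM in B16-Ova. CD4 cells with none of the 4 cytokine genes (443 cells of MC38-Ova and 456 of B16-Ova) had 631 CPM of Tnfrsf4 in MC38-Ova and 579 CPM in B16-Ova. The tumours lay closest in this last group. Proliferating Treg cells, gated on Mki67, Top2a, Ccna2 and Birc5, had less Tnfrsf4 than other Treg cells, with 878 against 1715 CPM in MC38-Ova and 1306 against 1709 CPM in B16-Ova. Their median RNA was 11468 against 5389 UMIs per cell in MC38-Ova and 14528 against 5116 UMIs in B16-Ova, and its part was not tested.

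**Figure D3:**
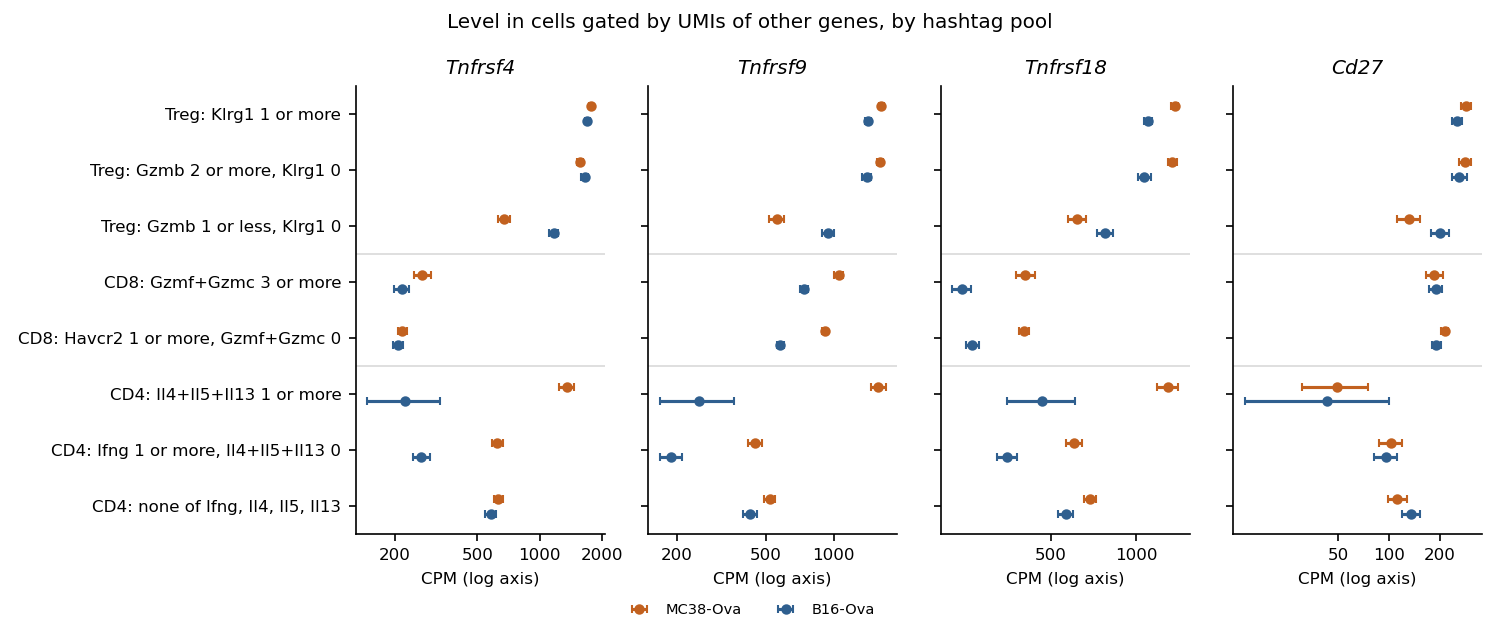
Level in CPM (log axis) of Tnfrsf4, Tnfrsf9, Tnfrsf18 and Cd27 in cells gated by UMIs of other genes within Treg, CD8 and CD4 cells, MC38-Ova in orange and B16-Ova in blue, with exact Poisson 95% intervals. Tnfrsf4 is lowest among Treg gates at 673 CPM (MC38-Ova) and 1172 CPM (B16-Ova) in cells with little Gzmb and no Klrg1, and CD4 cells with type 2 cytokine transcripts stand at 1355 CPM in MC38-Ova and 224 CPM in B16-Ova.

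The surface tags allowed members to be set against PD-1 protein, which stays high on chronically stimulated T cells. Cells of each class and tumour were split into quartiles of PD-1 within deciles of RNA, which matched them on RNA UMIs but not on hashtag UMIs. No background was set for the tags, so high and low name quartiles, not cells with and without the protein. The median PD-1 count was 19 in CD8 cells of MC38-Ova, 19.5 in those of B16-Ova and 14 in innate-like cells of both tumours. Pdcd1 lay further apart, at 329 and 388 CPM in CD8 and 34.8 and 42.1 CPM in innate-like cells, MC38-Ova first. The median hashtag count of CD8 cells was 560 in PD-1-high and 414.5 in PD-1-low cells of MC38-Ova, and 527 in PD-1-high and 398 in PD-1-low cells of B16-Ova. In Treg cells it was 630 in PD-1-high and 451.5 in PD-1-low cells of MC38-Ova, and 631.5 in PD-1-high and 405 in PD-1-low cells of B16-Ova. Its part was not tested, apart from the fit with PD-1 per hashtag UMI given below. In CD8 cells, 5 of 6 members were higher in PD-1-high than in PD-1-low cells by the Benjamini-Hochberg adjusted edgeR quasi-likelihood test, where 6.49% of 10240 genes were called higher and 5.60% lower. Tnfrsf4 had 207 CPM in PD-1-high and 94.6 CPM in PD-1-low cells of MC38-Ova, and 254 CPM in PD-1-high and 86.3 CPM in PD-1-low cells of B16-Ova (log2 1.30 ± 0.10, adjusted p 3.45e-16 in the edgeR quasi-likelihood test). Tnfrsf9 had 791 CPM in PD-1-high and 401 CPM in PD-1-low cells of MC38-Ova, and 605 CPM in PD-1-high and 282 CPM in PD-1-low cells of B16-Ova (log2 1.00 ± 0.07, adjusted p 1.18e-16 by the same edgeR test). Tnfrsf18 was higher by 0.57 ± 0.08 (adjusted p 2.52e-07), Tnfrsf1b by 0.40 ± 0.11 (adjusted p 0.00963) and Cd27 by 0.29 ± 0.09 (adjusted p 0.0224), while Tnfrsf25 did not pass (−0.18 ± 0.34, adjusted p 0.831 by edgeR). The size of the difference thus ran from Tnfrsf4 down to Cd27, and every called member was higher in both tumours. The fit had 4 sums and a spread borrowed across genes. With DESeq2 150 genes were called in place of 1238, and Tnfrsf1b and Cd27 were not among them. With PD-1 taken per hashtag UMI the Tnfrsf18 difference was 0.10 (adjusted p 0.578), and Tnfrsf1b and Cd27 were also not called. With quartiles over all cells in place of RNA deciles, Tnfrsf18 (adjusted p 0.0892), Tnfrsf1b and Cd27 were not called. Without the tumour term none of the members was called, and 0 genes were. The number of genes at an unadjusted p under 0.05 was 2349 with the term.

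Of the other costimulators 13 of 16 were higher and 0 lower in PD-1-high CD8 cells, led by Pdcd1 itself (log2 1.66), Lag3 (1.62), Havcr2 (1.43), the checkpoint gene Tigit (1.20) and Ctla4 (0.99). Of the ligand genes 7 of 13 were higher and 1 lower, with Tnfsf11 (0.60), Fasl (0.59), Tnfsf9 (0.58) and Tnf (0.41). Of the 35 pathway genes 5 were higher, with Bcl2a1b (0.55), Tank (0.44), the caspase inhibitor gene Cflar (0.41) and Nfkb2 (0.40), and 1 was lower, Bcl2 (−0.92). Of the other receptors 0 of 10 were higher and 1 was lower. Proliferation genes counted 0 higher and 5 lower of 12.

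In Treg cells 0 of 6 members were called between PD-1-high and PD-1-low cells, where the edgeR quasi-likelihood test called 0.342% of 8764 genes higher and 0.171% lower, 598 genes stood at an unadjusted p under 0.05 and DESeq2 called 8. Tnfrsf4 had 1406 CPM in PD-1-high and 1535 CPM in PD-1-low Treg cells of MC38-Ova, and 1733 CPM in PD-1-high and 1456 CPM in PD-1-low Treg cells of B16-Ova (log2 0.03, adjusted p 0.988 by edgeR). The tumours pointed opposite ways. The high to low ratio in Treg cells was 0.991 in MC38-Ova and 1.32 in B16-Ova for Tnfrsf9, and 1.09 in MC38-Ova and 1.17 in B16-Ova for Tnfrsf18. It was 1.23 in MC38-Ova and 0.813 in B16-Ova for Tnfrsf25, 1.15 in MC38-Ova and 1.24 in B16-Ova for Tnfrsf1b, and 1.10 in MC38-Ova and 1.18 in B16-Ova for Cd27. Pdcd1 was called in the same fit (log2 1.66).

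CD4 cells were not tested, and the 3 inducible receptors had the highest ratios of PD-1-high to PD-1-low cells in MC38-Ova. Tnfrsf4 had 864 CPM in PD-1-high and 567 CPM in PD-1-low CD4 cells of MC38-Ova, and 728 CPM in PD-1-high and 298 CPM in PD-1-low CD4 cells of B16-Ova. For Tnfrsf9 the ratio of high to low was 1.61 in MC38-Ova and 2.87 in B16-Ova, and for Tnfrsf18 it was 1.40 in MC38-Ova and 1.68 in B16-Ova. Tnfrsf1b had ratios of 1.05 in MC38-Ova and 1.69 in B16-Ova, Tnfrsf25 of 0.620 in MC38-Ova and 0.843 in B16-Ova, and Cd27 of 0.833 in MC38-Ova and 1.02 in B16-Ova. Markers of other cells moved with this split. The Treg list (Foxp3, at 0 by the class rule, Il2ra, Ctla4, Ikzf2 and Ikzf4) summed to 1124 CPM in PD-1-high and 831 CPM in PD-1-low CD4 cells of MC38-Ova, and to 1219 CPM in PD-1-high and 648 CPM in PD-1-low CD4 cells of B16-Ova. In MC38-Ova the macrophage list stood at 209 CPM in PD-1-high and 17.4 CPM in PD-1-low cells, and the stroma list at 37.8 CPM in PD-1-high and 273 CPM in PD-1-low cells. In B16-Ova the melanoma list stood at 34.9 CPM in PD-1-high and 1178 CPM in PD-1-low cells, and the NK and NKT list at 324 CPM in PD-1-high and 621 CPM in PD-1-low cells. Their part was not tested.

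Innate-like cells were not tested either. The PD-1-high to PD-1-low ratio there was 1.45 in MC38-Ova and 1.98 in B16-Ova for Tnfrsf4 and 1.14 in MC38-Ova and 1.15 in B16-Ova for Tnfrsf9. The other 4 members had ratios of 0.715 to 0.948 in MC38-Ova and of 1.06 to 1.51 in B16-Ova. In both tumours the counting intervals of these 4 members, and of Tnfrsf9, spanned equal levels, so no direction is read from them. Tnfrsf25 gave the lowest ratio in MC38-Ova (0.715, interval 0.204 to 2.35) and the highest in B16-Ova (1.51, 0.535 to 4.39).

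For Tim-3 protein, no test was made. The median Tim-3 count was 21 in CD8 cells of both tumours, and 18 in MC38-Ova and 19 in B16-Ova in innate-like cells. Havcr2 stood at 119 and 112 CPM in CD8 and at 8.07 and 10.0 CPM in innate-like cells, MC38-Ova first. Tim-3-high and Tim-3-low are therefore read as quartiles of the tag only. CD8 cells high in Tim-3 had 857 CPM of Tnfrsf9 and Tim-3-low cells 396 CPM in MC38-Ova, and the values in B16-Ova were 568 CPM in Tim-3-high and 332 CPM in Tim-3-low cells. The high to low ratio of Tnfrsf4 in CD8 cells was 1.77 in MC38-Ova and 1.71 in B16-Ova. Tnfrsf18 had 1.43 in MC38-Ova and 1.34 in B16-Ova, Tnfrsf1b 1.09 in MC38-Ova and 1.32 in B16-Ova, Cd27 1.15 in MC38-Ova and 1.15 in B16-Ova, and Tnfrsf25 0.878 in MC38-Ova and 0.919 in B16-Ova. In Treg cells Tnfrsf4 had 1.07 in MC38-Ova and 1.08 in B16-Ova, and the other 5 members lay between 0.942 and 1.19 in MC38-Ova and between 0.547 and 1.19 in B16-Ova, lowest for Tnfrsf25 in both. In CD4 cells Tnfrsf9 had the widest ratio, 1.56 in MC38-Ova and 2.31 in B16-Ova, and the others lay between 0.915 and 1.17 in MC38-Ova and between 0.602 and 1.70 in B16-Ova. In innate-like cells Tnfrsf4 had 1.86 in MC38-Ova and 1.38 in B16-Ova, Tnfrsf9 had 1.53 in MC38-Ova and 1.31 in B16-Ova, and the others lay between 0.855 and 1.32 in MC38-Ova and between 1.11 and 1.63 in B16-Ova.

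L-Pha binding, the readout of branched N-glycans, gave 0 called members in CD8 cells and 0 in Treg cells. In CD8 cells the edgeR quasi-likelihood test put 0.157% of 10159 genes higher in L-Pha-high cells and 0.0492% lower, with 1277 at an unadjusted p under 0.05 and 35 called by DESeq2. In Treg cells it called 0.624% of 8495 higher and 0.165% lower, with 1046 at an unadjusted p under 0.05 and 22 called by DESeq2. Within B16-Ova the inducible receptors were higher in L-Pha-high cells of both classes, and within MC38-Ova their ratios lay between 0.836 and 1.07. Tnfrsf9 in CD8 cells was at 579 CPM in L-Pha-high and 692 CPM in L-Pha-low cells in MC38-Ova (ratio 0.836, 0.797 to 0.877). It was at 572 CPM in L-Pha-high and 313 CPM in L-Pha-low cells in B16-Ova (ratio 1.83, 1.71 to 1.95). Tnfrsf4 in CD8 cells had a high to low ratio of 0.995 in MC38-Ova and 1.81 in B16-Ova, and in Treg cells one of 0.927 in MC38-Ova and 1.37 in B16-Ova. Tnfrsf18 had 1.06 in MC38-Ova and 1.5 in B16-Ova among CD8 cells, and 0.982 in MC38-Ova and 1.58 in B16-Ova among Treg cells. Tnfrsf9 in Treg cells had 1.07 in MC38-Ova (1.01 to 1.14) and 1.73 in B16-Ova (1.61 to 1.85). In CD8 cells Tnfrsf1b had 1.04 in MC38-Ova and 1.64 in B16-Ova, Cd27 0.899 in MC38-Ova and 1.11 in B16-Ova, and Tnfrsf25 1.76 in MC38-Ova and 0.901 in B16-Ova. The median hashtag count also differed, at 535 in L-Pha-high and 382.5 in L-Pha-low CD8 cells of MC38-Ova and 687.5 in L-Pha-high and 349 in L-Pha-low Treg cells of B16-Ova, and its part was not tested.

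Among Treg cells the ratio of L-Pha-high to L-Pha-low was below 1 in both tumours for Tnfrsf25 and above 1 in both for Tnfrsf9, Tnfrsf1b and Cd27, and none of the 4 passed the test. Tnfrsf25 had 13.5 CPM in L-Pha-high and 32.0 CPM in L-Pha-low Treg cells of MC38-Ova, and 8.15 CPM in L-Pha-high and 32.0 CPM in L-Pha-low Treg cells of B16-Ova. The 2 levels did not pass the test (log2 −1.58 ± 0.30, adjusted p 0.0579 in the Benjamini-Hochberg adjusted edgeR quasi-likelihood test), and passed with no filter on low counts (0.00067), with quartiles over all cells (0.0423) and with L-Pha per hashtag UMI (0.00807). Tnfrsf1b had 188 CPM in L-Pha-high and 132 CPM in L-Pha-low Treg cells of MC38-Ova, and 221 CPM in L-Pha-high and 131 CPM in L-Pha-low Treg cells of B16-Ova (log2 0.60 ± 0.15, adjusted p 0.125 by edgeR, 0.0431 with no filter on low counts). Cd27 had 245 CPM in L-Pha-high and 234 CPM in L-Pha-low Treg cells of MC38-Ova, and 300.2 CPM in L-Pha-high and 209 CPM in L-Pha-low Treg cells of B16-Ova (adjusted p 0.566 by edgeR). Called genes of the lists in this comparison were Lag3 (1.76), which was higher, and Tnfsf11 (−1.48) and Cd40lg (−1.38), which were lower among 3 ligands of 9 that were.

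The widest gap between tumours was in CD4 cells, where no test was made. Tnfrsf9 had 573 CPM in L-Pha-high and 800.3 CPM in L-Pha-low CD4 cells of MC38-Ova (ratio 0.716, 0.646 to 0.793). In B16-Ova it had 691 CPM in L-Pha-high and 148 CPM in L-Pha-low CD4 cells (ratio 4.68, 3.86 to 5.71). Tnfrsf4 had 738 CPM in L-Pha-high and 904 CPM in L-Pha-low CD4 cells of MC38-Ova, and 690.3 CPM in L-Pha-high and 232 CPM in L-Pha-low CD4 cells of B16-Ova. The L-Pha-high cells of both tumours lay close together, and the L-Pha-low cells lay apart. Cd27 had ratios of 1.55 in MC38-Ova and 2.14 in B16-Ova, and Tnfrsf1b of 1.49 in MC38-Ova and 1.66 in B16-Ova. Tnfrsf18 had 0.835 in MC38-Ova and 1.84 in B16-Ova, and Tnfrsf25 had 0.494 in MC38-Ova and 0.814 in B16-Ova. Markers moved with this split. The Treg list summed to 1238 CPM in L-Pha-high and 948 CPM in L-Pha-low CD4 cells of MC38-Ova, and to 1779 CPM in L-Pha-high and 448 CPM in L-Pha-low CD4 cells of B16-Ova. Ctla4 of that list went the other way in MC38-Ova, at 749 CPM in L-Pha-high and 801 CPM in L-Pha-low CD4 cells. The NK and NKT list stood at 707 CPM in L-Pha-high and 70.2 CPM in L-Pha-low CD4 cells of MC38-Ova, and at 330.1 CPM in L-Pha-high and 92.0 CPM in L-Pha-low CD4 cells of B16-Ova. In MC38-Ova the macrophage list was at 340.1 CPM in L-Pha-high and 23.1 CPM in L-Pha-low cells and the stroma list at 379 CPM in L-Pha-high and 46.1 CPM in L-Pha-low cells. The T cell list of MC38-Ova was at 3576 CPM in L-Pha-high and 5583 CPM in L-Pha-low cells and its CD4 list at 409 CPM in L-Pha-high and 881 CPM in L-Pha-low cells. The part of these markers was not tested.

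In innate-like cells, not tested, Cd27 had L-Pha-high to L-Pha-low ratios of 0.721 in MC38-Ova and 0.694 in B16-Ova. Tnfrsf4 had 1.15 in MC38-Ova and 1.81 in B16-Ova and Tnfrsf9 had 1.25 in MC38-Ova and 1.40 in B16-Ova, while the other 3 members lay between 0.920 and 1.11 in MC38-Ova and between 0.798 and 1.04 in B16-Ova.

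**Figure D4:**
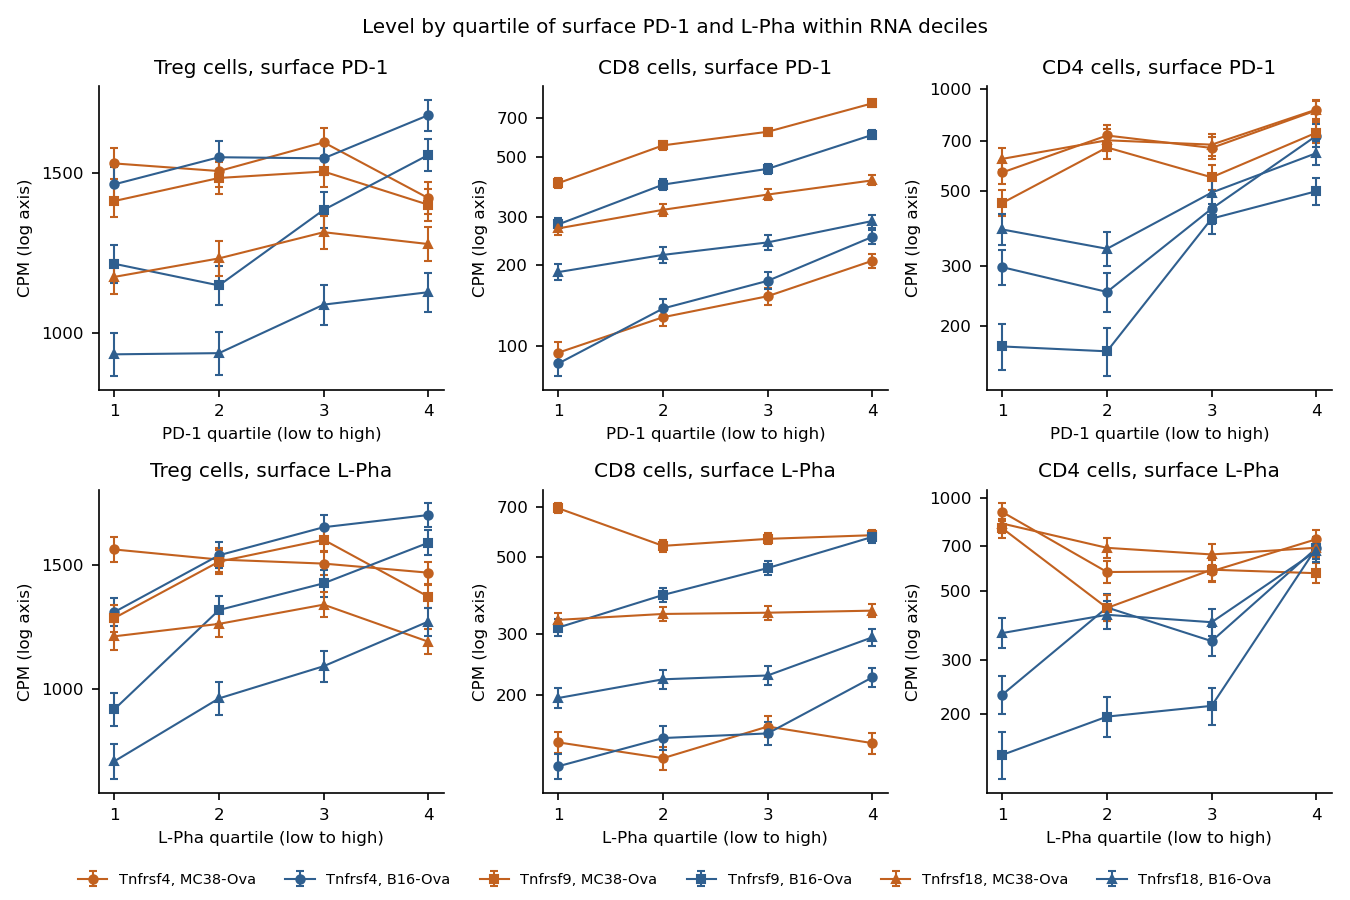
Level in CPM (log axis) of Tnfrsf4 (circles), Tnfrsf9 (squares) and Tnfrsf18 (triangles) over quartiles of surface PD-1 (upper panels) and L-Pha (lower panels), low to high, in Treg, CD8 and CD4 cells, MC38-Ova in orange and B16-Ova in blue, with exact Poisson 95% intervals. Levels climb with PD-1 in CD8 cells of both tumours. In B16-Ova the top L-Pha quartile is the highest in each class, and Tnfrsf9 in CD4 cells is at 148 CPM in the lowest and 691 CPM in the highest quartile.

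MC38-Ova and B16-Ova each gave 1 pool, so their levels are set side by side without a test, and intervals cover counting error only. In CD4 cells 3 of 6 members were past 1.5-fold higher in MC38-Ova, where 3.68% of 6774 genes were past it higher and 2.72% lower. They were Tnfrsf9 (600.3 CPM in MC38-Ova and 312 CPM in B16-Ova, ratio 1.93, 1.79 to 2.07), Tnfrsf4 (702 CPM in MC38-Ova and 428 CPM in B16-Ova, ratio 1.64, 1.54 to 1.75) and Tnfrsf18 (717 CPM in MC38-Ova and 465 CPM in B16-Ova, ratio 1.54, 1.45 to 1.64). Tnfrsf25 (0.814), Tnfrsf1b (0.769) and Cd27 (0.891) had ratios below 1. So the 3 inducible receptors stood apart from the other members in this class. In the lowest tercile of RNA per CD4 cell, Tnfrsf4 was at 542 CPM in MC38-Ova and 565 CPM in B16-Ova. There Tnfrsf9 was at 716 and 682 CPM and Tnfrsf18 at 736 and 624 CPM, in the same order. In the highest tercile Tnfrsf4 was at 741 and 417 CPM, Tnfrsf9 at 609 and 269 CPM and Tnfrsf18 at 688 and 438 CPM. The gap was wider in the highest tercile, and the part of depth was not tested. With the mean of each cell's CPM in place of the sum, the ratios were 1.49 for Tnfrsf9, 1.46 for Tnfrsf4 and 1.48 for Tnfrsf18, all short of 1.5-fold, and with stricter hashtag rules Tnfrsf18 was at 1.48. Summed Treg markers in these cells were at 991 CPM in MC38-Ova and 854 CPM in B16-Ova, and Il2ra, the high-affinity IL-2 receptor gene, at 125 CPM in MC38-Ova and 70.3 CPM in B16-Ova. In CD4 cells without a UMI of Il2ra, Ikzf2 or Ikzf4 (375 of 736 cells in MC38-Ova and 426 of 753 in B16-Ova, added after the data were seen) the ratios were 1.74 for Tnfrsf4, 2.30 for Tnfrsf9 and 1.67 for Tnfrsf18. The heat shock gene Hspa1a (44.1 CPM in MC38-Ova and 279 CPM in B16-Ova) and the melanoma list (33.1 CPM in MC38-Ova and 328 CPM in B16-Ova) also differed between the CD4 sums. Other marker lists were higher in the CD4 sum of MC38-Ova. The stroma list was at 141 CPM in MC38-Ova and 53.8 CPM in B16-Ova, and the macrophage list at 115 and 57.3 CPM. The NK and NKT list was at 433 and 315 CPM, in the same order. The part of all these was not tested.

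In CD8 cells 0 of 6 members were past 1.5-fold (5.47% of 9758 genes higher, 5.70% lower). Tnfrsf18 had a ratio of 1.46 (1.40 to 1.51) and Tnfrsf9 one of 1.36 (1.32 to 1.40), while Tnfrsf4 stood at 0.892, with 1.04 after thinning. Cd27 was at 1.11, Tnfrsf25 at 1.07 and Tnfrsf1b at 0.913. With the mean of each cell's CPM in place of the sum, Tnfrsf9 was at 1.53, and with stricter class or hashtag rules Tnfrsf18 was at 1.52 and 1.53. In Treg cells 0 of 6 were past it (4.95% of 7999 genes higher, 3.59% lower), and their ratios ran from 0.901 for Tnfrsf1b to 1.23 for Tnfrsf25, with Tnfrsf18 at 1.20, Tnfrsf9 at 1.09 and Cd27 at 1.06. Tnfrsf4 in Treg cells was nearly level, at 0.961 (0.934 to 0.989), and at 1.04 with stricter class rules. In innate-like cells 0 of 5 members with at least 100 UMIs were past it (4.15% of 6575 genes higher, 1.76% lower), at 0.907 to 1.10. Tnfrsf25 had 24 UMIs in MC38-Ova and 26 in B16-Ova there, too few to count.

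Among other genes of the system, Tnfrsf12a, which encodes the TWEAK receptor, was higher in MC38-Ova than in B16-Ova in CD4 cells (29.5 CPM in MC38-Ova and 7.44 CPM in B16-Ova, ratio 3.97). Tnf was higher in CD8 cells of MC38-Ova (94.8 CPM in MC38-Ova and 34.2 CPM in B16-Ova, ratio 2.77) and lower in its CD4 cells (90.5 CPM in MC38-Ova and 149 CPM in B16-Ova, ratio 0.609). Icos (435 CPM in MC38-Ova and 231 CPM in B16-Ova) and Cd28 (398 CPM in MC38-Ova and 264 CPM in B16-Ova) were higher in CD8 cells of MC38-Ova. Tnfsf4 was at 1.67 CPM in CD8 cells of MC38-Ova and 14.6 CPM in those of B16-Ova. In Treg cells 5 of 35 pathway genes were past 1.5-fold lower in MC38-Ova and 0 higher, among them the adaptor gene Traf1 (253 CPM in MC38-Ova and 393 CPM in B16-Ova, ratio 0.643), Rel (0.647) and Nfkb2 (0.654), which encode NF-κB subunits, and Bcl2a1b (0.438). All 12 proliferation genes were past 1.5-fold lower in CD8 cells of MC38-Ova, and 6 of 12 in its Treg cells, while in innate-like cells 7 of 11 were past 1.5-fold higher in MC38-Ova and 0 lower.

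**Figure D5:**
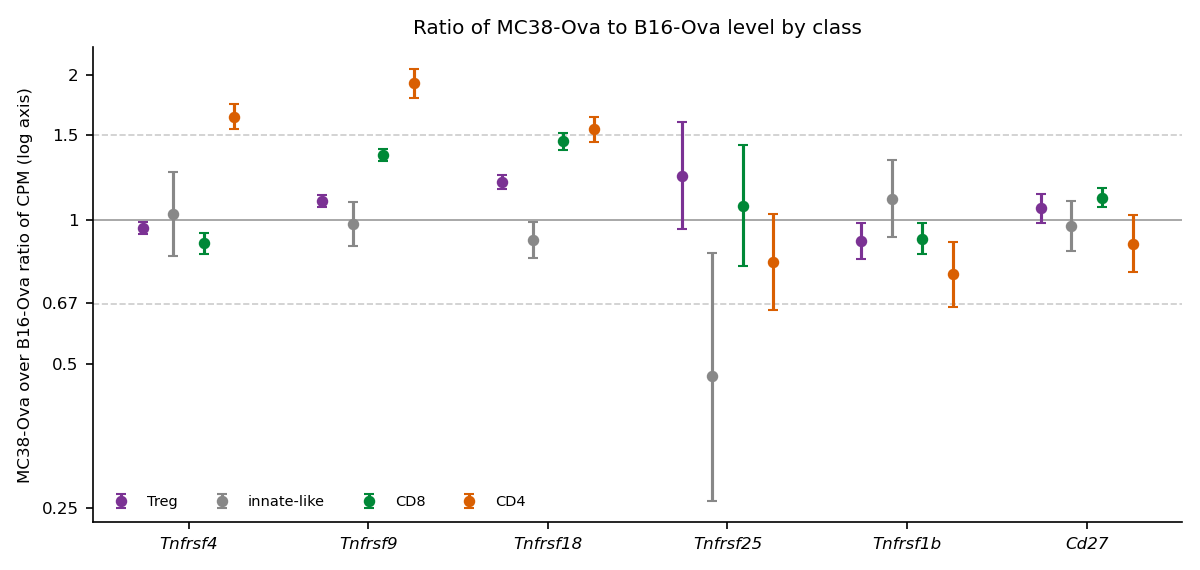
Ratio of the MC38-Ova to the B16-Ova level of each member (log axis) in the 4 classes, with exact 95% intervals for counting error and dashed lines at 1.5-fold either way. The 3 points past the line are Tnfrsf9 (1.93), Tnfrsf4 (1.64) and Tnfrsf18 (1.54) in CD4 cells, apart from Tnfrsf25 in innate-like cells, which rests on 24 UMIs in MC38-Ova and 26 in B16-Ova.

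Over the 8 sums, among 5394 genes at a mean of 20 CPM or more, the genes whose log2 levels tracked each member best by Pearson's r were as follows. Tnfrsf4 was nearest to Hcls1 (0.993), Snx20 (0.991) and Lamc1 (0.990), and Tnfrsf9 to Cyb561d2 (0.992), Pkm (0.980) and Yipf5 (0.978). Tnfrsf18 was nearest to Mmgt2 (0.994), Prdx4 (0.986) and Igtp (0.979), and Tnfrsf25 to Ipmk (0.995), Trim11 (0.984) and Znrf1 (0.963). Tnfrsf1b was nearest to Ufsp2 (0.982), Pla2g16 (0.979) and Ap1m1 (0.975). For Cd27 the best were Mdh1 (0.925), Dynlt1b (0.904) and Mthfd1l (0.897), lower than for the other members. Among the members, r was 0.915 for Tnfrsf4 with Tnfrsf18, 0.883 for Tnfrsf4 with Tnfrsf9 and −0.327 for Tnfrsf25 with Cd27. The 8 points share classes, tumours and 1 capture, so these values describe the sums and carry no p.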

How the data were processed

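RNA, surface tags and hashtags were read in 1 droplet capture. The authors deposited unnormalised UMI counts per gene, tag and barcode, made with Cell Ranger 3.1.0 on mm10, with R 3.6.1 and Seurat 3.1.0 also named, per the submitters' processing notes. Tag values are UMI counts too. The TCR library was not analysed here.

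The members and gene lists were chosen with earlier results of these data known, and cells were re-classed from the counts. Barcodes needed at least 500 genes, at most 10% mitochondrial UMIs, and at least 150 UMIs of 1 hashtag, 3 times the other, so 2388 barcodes with both hashtags were left out. Doublets within a hashtag stayed in, and removing the highest Scrublet scores was an alternative. CD8 cells had at least 2 UMIs of Cd8a and Cd8b1 and none of Cd4 or Foxp3; Treg cells had Foxp3 and no Cd8a or Cd8b1; CD4 cells had Cd4 and neither; innate-like cells had Cd3e, at least 2 UMIs of Fcer1g and Tyrobp, at most 1 of Cd8a and Cd8b1, and no Cd4 or Foxp3. Classes were not clustered or named from markers.

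Summed counts were tested with edgeR 4.0.16 (TMM, filterByExpr, quasi-likelihood, Benjamini-Hochberg over all genes tested) in R 4.3.3, with the tumour as a term. The class fit had 8 sums and 3 residual degrees of freedom. Each tag fit had 4 sums and 1 residual degree of freedom, with quartiles within deciles of RNA UMIs. DESeq2 1.42.0, other filters, scalings and class rules were tried as alternatives, and the code was tested on simulated data. Ratios between tumours have exact conditional 95% intervals, and a gene counted as past 1.5-fold only with at least 100 UMIs. Poisson and Clopper-Pearson intervals cover counting error only.

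All 6 members are named in every comparison, some by a range. From each list and comparison, up to 5 called genes of the largest absolute log2 fold change at a mean of 20 CPM or more are named; list genes given by level or between tumours were picked after their values were seen. Numbering sets no pairs; the tumour term serves as the block. A further gate of CD8 cells is not reported here.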

Additional observations from a re-analysis of the deposited data

Results flagged for a closer look

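The members for which the tumours, or the classes between tumours, pointed opposite ways are given here as values. No difference between them was tested, since each tumour type was 1 pool.

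For Tnfrsf18, the innate-like level was 0.852 times the CD8 level in MC38-Ova and 1.37 times in B16-Ova. The ratio of the MC38-Ova to the B16-Ova level of Tnfrsf18 was 1.20 in Treg, 1.46 in CD8 and 1.54 in CD4 cells, but 0.907 in innate-like cells. For Tnfrsf4 this ratio was 0.961 in Treg and 0.892 in CD8 cells, and 1.64 in CD4 cells.

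The ratio of PD-1-high to PD-1-low Treg cells was 0.916 in MC38-Ova and 1.19 in B16-Ova for Tnfrsf4. The ratio of L-Pha-high to L-Pha-low Treg cells was 0.927 in MC38-Ova and 1.37 in B16-Ova for Tnfrsf4. In CD8 cells the L-Pha ratio was 0.836 in MC38-Ova and 1.83 in B16-Ova for Tnfrsf9, and 0.899 in MC38-Ova and 1.11 in B16-Ova for Cd27. In CD4 cells it was 0.817 in MC38-Ova and 2.98 in B16-Ova for Tnfrsf4, 0.716 in MC38-Ova and 4.68 in B16-Ova for Tnfrsf9, and 0.835 in MC38-Ova and 1.84 in B16-Ova for Tnfrsf18. The 3 receptors thus shared this pattern in CD4 cells. The summed Treg list there was higher in L-Pha-high cells of both tumours. It stood at 1238 CPM in L-Pha-high and 948 CPM in L-Pha-low cells of MC38-Ova. In B16-Ova it stood at 1779 CPM in L-Pha-high and 448 CPM in L-Pha-low cells. Its genes did not all move alike in MC38-Ova. There Ctla4 was at 749 CPM in L-Pha-high and 801 CPM in L-Pha-low cells. Ikzf2 was at 271 and 63.2 CPM and Il2ra at 203 and 77.2 CPM, in the same order. In B16-Ova Ctla4 was at 1236 CPM in L-Pha-high and 340 CPM in L-Pha-low cells. The part of the list was not tested.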

How the results depend on the processing

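The causes of the changes below were not tested. Of 396 alternative values of members in class comparisons, 338 were kept, 8 passed the threshold newly, 11 lost it and 39 moved. Values from 1 tumour alone had no test. They counted as kept within the SE of the main value and as moved beyond it, and only they could count as moved. The other kept values stayed on their side of the threshold, and called ones kept their direction. Of 240 in tag comparisons, 187 were kept, 5 passed newly, 16 lost the call and 31 moved. The last 1 reversed: Tnfrsf9 between PD-1-high and PD-1-low Treg cells, at −0.45 with PD-1 per hashtag UMI. Of 150 ratios between tumours 121 moved by less than their interval and 29 by more. Of 96 alternative values of levels 59 were kept and 37 moved, and of 96 alternative shares of cells all moved. Tnfrsf4, for example, was seen in 76.9% of Treg cells of MC38-Ova at 2000 UMIs, 62.6% at 1000 UMIs and 85.1% without thinning. The shares given above therefore hold only at the depth named.

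Counts of called genes moved by over 1.5 times as follows. Without the tumour term they were 104 for Treg against CD4 (375), 916 for Treg against CD8 (1729), 344 for innate-like against CD8 (910), 614 for innate-like against CD4 (1060), 119 for CD8 against CD4 (770), and 0 for each tag comparison, PD-1 in CD8 (1238), PD-1 in Treg (45), L-Pha in CD8 (21) and L-Pha in Treg cells (67). This is the fit without the replicate block, the tumour being the block. With no low-count filter they were 707 for Treg against CD4, 1326 for CD8 against CD4, 1455 for innate-like against CD8, 124 for PD-1 in Treg, 425 for L-Pha in CD8 and 527 for L-Pha in Treg cells. With only the 2 classes fitted they were 764 for Treg against CD4, 444 for CD8 against CD4 and 1786 for innate-like against CD4. Thinned cells gave 671 for Treg against CD4, and stricter hashtag rules 453 for CD8 against CD4. DESeq2 gave 150 for PD-1 in CD8, 8 for PD-1 in Treg, 35 for L-Pha in CD8 and 22 for L-Pha in Treg cells. RLE scaling gave 71 for L-Pha in CD8 cells. Without the highest Scrublet scores the counts were 96 for PD-1 in Treg and 70 for L-Pha in CD8 cells. Terciles gave 716 for PD-1 in CD8 and 13 for PD-1 in Treg cells. Quartiles over all cells gave 261 for PD-1 in CD8, 2 for L-Pha in CD8 and 178 for L-Pha in Treg cells. Tags per hashtag UMI gave 148 for PD-1 in Treg, 463 for L-Pha in CD8 and 331 for L-Pha in Treg cells. Each tumour alone left no residual degrees of freedom, so no such count was made.

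Without the tumour term, Tnfrsf9 and Tnfrsf18 lost their call between Treg and CD4 cells (adjusted p 0.0571 and 0.152 in the edgeR quasi-likelihood test) and between innate-like and CD4 cells (0.0859 and 0.105). Tnfrsf9 lost it between innate-like and CD8 cells (0.0568), and Tnfrsf18 between CD8 and CD4 cells (0.105). With stricter hashtag rules Tnfrsf18 lost it between innate-like and CD4 cells (0.0584). In the PD-1 comparison of CD8 cells Cd27 was not called without the highest Scrublet scores (0.0603), and with terciles neither Tnfrsf1b (0.0529) nor Cd27 (0.109) was, while with PD-1 per hashtag UMI Tnfrsf25 was called lower (log2 −2.14, adjusted p 0.00302 by edgeR). Over the alternatives the CD4 ratio between tumours ran from 1.49 to 2.30 for Tnfrsf9, from 1.46 to 1.81 for Tnfrsf4 and from 1.48 to 1.81 for Tnfrsf18, lowest with the mean of each cell's CPM (for Tnfrsf18 also with stricter hashtag rules). Depth limits Tnfrsf25 most, with 24 to 157 UMIs a sum.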
